A study of Mus musculus with 3 samples.

Results

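Intraepithelial cytotoxic T lymphocytes of the mouse small intestine were looked for among 12653 single cells of 3 libraries. A cell was a member if it had at least 1 unique molecular identifier (UMI, a counted RNA molecule) of at least 3 of the 8 genes Cd3d, Cd3e, Cd3g, Cd7, Cd8a, Nkg7, Gzma and Gzmb, together with at least 1 of the 4 leukocyte genes Ptprc, Cd52, Coro1a and Rac2. This found 662 cells, 5.23% of all cells. Because detected values chose the members, the levels of those 12 genes in them are a description. The members did not all carry the label. The amount of T cell RNA per member ranged widely, and 218 of the 662 had under 0.1% of their UMIs in the 8 genes. Of these 128 lay in a cluster led by defensin genes of another cell type, and the rest in other clusters. The members are therefore described below in 3 ranges.

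The study asked how alginate oligosaccharide (AOS), given by gavage, acts on the small intestine of mice injected with busulfan, an alkylating drug used before bone marrow transplantation. Male ICR mice, an outbred stock, were 3 weeks old when injected, and each library was made from the combined cells of 6 mice. The AOS 0 mice had neither busulfan nor AOS, the B + A 0 mice had 1 injection of busulfan at 40 mg/kg and no AOS, and the B + A 10 mice had the same injection and AOS at 10 mg/kg. Gavage, with water where no AOS was given, was daily for 2 weeks. Peyer's patches were removed and the epithelium was released with EDTA, and no step selected lymphocytes. The labels disagree on both busulfan libraries. The title, description and treatment of each are followed here, but the source name of the library used as B + A 0 reads AOS10, and that of the library used as B + A 10 reads B+A0, so every comparison rests on the titles being right.

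Intraepithelial lymphocytes lie between the epithelial cells of the villi. Most carry a T cell receptor with the CD3 chains and CD8, and hold granules with granzymes, proteases that can kill infected or damaged epithelial cells. A large share of them, the natural intraepithelial lymphocytes, carry CD8 as alpha chains alone together with signalling chains typical of natural killer cells (Fcer1g, Tyrobp), and conventional CD8 T cells carry the alpha and the beta chain.

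Sets of 3 values below are in the order AOS 0, then B + A 0, then B + A 10, and levels are given as CPM, UMIs per 1000000 UMIs over the cells summed. The libraries held 4106, 3195 and 5352 cells, with a median of 7371, 6407 and 3505 UMIs per cell. The shallowest cell had 3155, 3929 and 2051 UMIs. With 1 library per group there is no replicate, so no test between groups was possible and no p-value is given. Intervals in parentheses are 95% limits from the counts of cells or UMIs and cover counting error only. Both comparisons below use the B + A 0 library, so a value peculiar to it enters both with opposite sign. Of 12571 distinct barcodes, 82 were in more than 1 library. Among members 1 barcode was shared, and 10 members had a barcode found in another library.

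In AOS 0 141 of 4106 cells were members (3.43%, 2.90 to 4.04). In B + A 0 it was 244 of 3195 (7.64%, 6.74 to 8.61), and with both busulfan and AOS 277 of 5352 (5.18%, 4.60 to 5.80). The share was thus higher by 4.20 percentage points (3.14 to 5.30) in B + A 0 than in AOS 0, and lower by 2.46 points in B + A 10 than in B + A 0 (difference −2.46, −3.58 to −1.39). Members richer in T cell RNA did not show these differences. Those with at least 0.1% of their UMIs in the 8 genes were 3.17%, 3.10% and 4.02% of the libraries, a difference of −0.0675 points (−0.865 to 0.756) and then of 0.919 points (0.0947 to 1.70). When each cell was thinned to 1000 UMIs and the rule applied again, the 2 differences were −0.366 and 0.736 points, both opposite in sign to those of the rule as given.

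**Figure D1:**
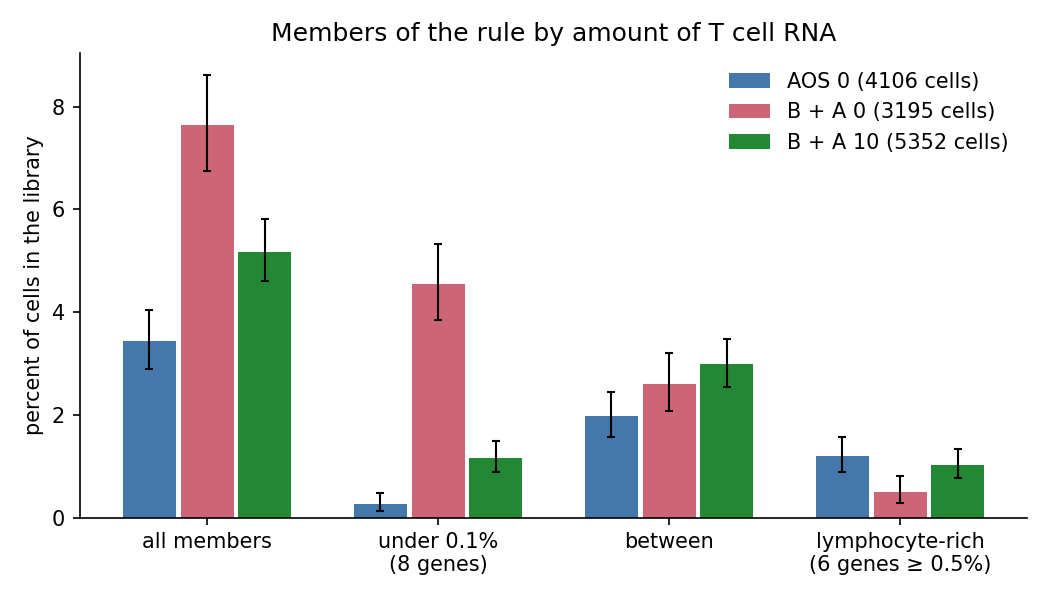
Share of each library's cells (%, from 0) that met the membership rule, and that fell in each of the 3 ranges of T cell RNA, by library; bars are shares and lines exact 95% binomial intervals. The cells under 0.1% were 0.268%, 4.54% and 1.16% of the libraries, and the lymphocyte-rich cells 1.19%, 0.501% and 1.03%.

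The 218 members under 0.1% numbered 11, 145 and 62, and made up 7.80%, 59.4% and 22.4% of the members there. They were deep cells, with a median of 17715 UMIs. Defensin genes, the antimicrobial peptides of Paneth cells, took a median of 49.3% of their UMIs in B + A 0 and 60.9% in B + A 10, against 0.166% in the 11 cells of AOS 0. Summed over these cells, Lyz1, the Paneth cell lysozyme, was at 3513%, 3676% and 3542% of its level in cells with no gene of the rule, so that deep cells of this kind were also among the 11 of AOS 0. Of these 218 cells 128 lay in a single cluster led by Defa5, Gm15292, Defa35 and Defa34, near-identical genes among which reads can be split. The rest lay in other clusters. Over 5% of UMIs were of defensin genes in 73 of the 119 cells with under 0.05% in the 8 genes. It was 58 of the 99 cells between 0.05% and 0.1%, so that not all of the 218 were rich in defensin RNA. A UMI of Cd3d, Cd3e or Cd3g was present in 177 of the 218 and absent from 41. They met the rule with few UMIs of many genes and are not called lymphocytes here.

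The number of UMIs in a cell moved with membership outside the clusters of T cells. Of cells outside those clusters, 0.757% of those under 5000 UMIs, 1.47% of those between 5000 and 10000, 5.11% of those between 10000 and 20000 and 37.5% of those with 20000 or more were members. Among the deepest cells it was 4 of 130 (3.08%), 75 of 112 (67.0%) and 23 of 30 (76.7%) by library. Deep cells were thus often members in both busulfan libraries and seldom in AOS 0.

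Lymphocyte RNA in cells outside the members differed between the libraries in the same way. Over cells that were not members and had under 0.1% of UMIs in the 8 genes, those genes stood at 58.1, 255 and 267 CPM, a ratio of 4.38 (4.16 to 4.62) and then 1.05. Gzma, granzyme A, was at 31.8, 148 and 152 CPM there, and Ccl5, a chemokine that draws leukocytes, at 59.1, 287 and 369. Cd3e, a chain of the CD3 complex, was at 2.21, 11.5 and 14.1. The 4 leukocyte genes differed less, with Cd52 at 5.63, 5.91 and 10.1 and Ptprc, the CD45 phosphatase, at 0.795, 1.52 and 3.05, but the rule itself takes cells with these genes out of the non-members. Over 29 lymphocyte genes the median ratio was 3.64 (range 1.05 to 12.5) for B + A 0 over AOS 0 and 1.14 for B + A 10 over B + A 0. The median of these genes in such cells was 0.215%, 0.980% and 0.933% of their level in the lymphocyte-rich cells of the same library. The part of this RNA in the count of members was not tested beyond the settings given here.

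**Figure D2:**
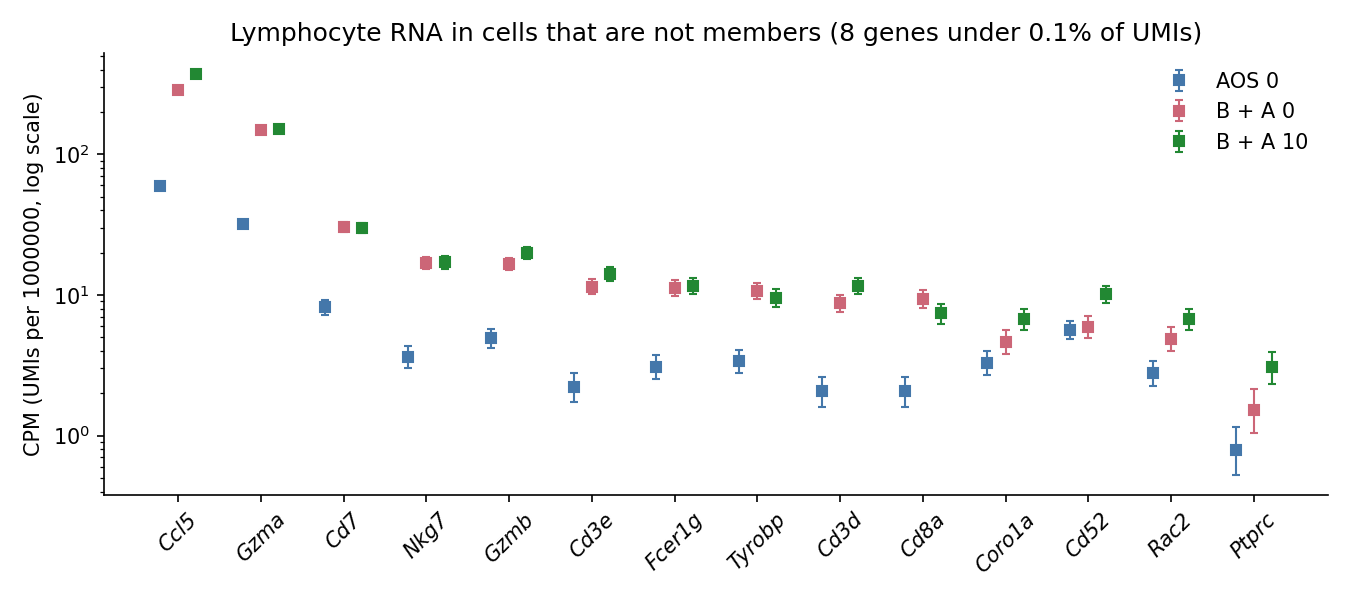
Level of lymphocyte genes (CPM, log axis) in cells that were not members and had under 0.1% of their UMIs in the 8 genes, 1 point per gene and library. Gzma stood at 31.8, 148 and 152 CPM and Cd3e at 2.21, 11.5 and 14.1, whereas Cd52 stood at 5.63, 5.91 and 10.1.

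Near the threshold of the rule, 246 cells had exactly 2 of the 8 genes with a leukocyte gene and were outside it (23, 102 and 121 by library). Just inside it were 116 cells with exactly 3 (10, 61 and 45), whose median share of UMIs in the 8 genes was 0.0502%. At the other end 131 members had all 8 genes (42, 38 and 51).

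The lymphocyte-rich members had at least 0.5% of their UMIs in Cd3d, Cd3e, Cd3g, Cd7, Cd8a and Nkg7, leaving the granzymes out, and numbered 120, namely 49, 16 and 55 by library. These limits were set after the data were seen and mark ranges of a continuous quantity, not types: 21 members lay within 1.25-fold under 0.5% and 15 within 1.25-fold over it, and 30 and 20 around the limit of 0.1%. The lymphocyte-rich cells had a median of 8 of the 8 genes, all had a UMI of a CD3 chain, and 119 of the 120 lay in 2 clusters of T cells. One of these clusters (348 cells) was led by Xcl1, Gzmb, Lgals1, Gp2 and Gzma, and the other (67 cells) by Ccl5, Cd3g, Tyrobp, Gzmb and Fcer1g. A cluster was called one of T cells if at least 3 of the label's markers were among its leading genes. These 2 had 3 and 6 of them. Genes that chose the cells thus enter all of these counts, and none is an independent check. Of the label's markers Cd3g, Cd7, Gzma, Gzmb and Nkg7 had chosen the cells, so that their levels are no check of the label. The one the rule did not use, Ccl5, had a UMI in 117 of the 120. Ccl5 also had a UMI in 35.8%, 83.5% and 73.0% of the non-members under 0.1% by library. Its detection is therefore little check of the label, above all in both busulfan libraries. Its level did differ, at 13442, 8148 and 18342 CPM in the lymphocyte-rich cells against 59.1, 287 and 369 in those non-members.

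Lymphocyte-rich members were 1.19% (0.884 to 1.57), 0.501% (0.287 to 0.812) and 1.03% (0.775 to 1.34) of the libraries. The difference was −0.69 points (−1.12 to −0.268) for B + A 0 against AOS 0 and 0.527 points (0.136 to 0.890) for B + A 10 against B + A 0. B + A 10 and AOS 0 differed by −0.166 points (−0.614 to 0.257). The number of UMIs kept per cell bears on this order, since the lymphocyte-rich cells held few. Their median was 4227, 5322.5 and 2541 UMIs, and in B + A 10 just 4 of the 55 reached the 3929 UMIs of the shallowest B + A 0 cell. With that minimum in all libraries the counts were 26 (0.700%), 16 (0.501%) and 4 (0.191%), so that B + A 10 then lay below B + A 0. The intervals of AOS 0 (0.458 to 1.02) and B + A 0 (0.287 to 0.812) then overlapped. With a minimum of 5000 UMIs the shares were 0.433%, 0.408% and 0.254%. Both clusters of T cells together held 122, 92 and 201 cells, 2.97%, 2.88% and 3.76% of the libraries. A smaller number of such cells and a smaller number recovered by the isolation cannot be told apart in these data.

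The 324 members between both limits numbered 81, 83 and 160, which was 1.97%, 2.60% and 2.99% of the libraries. Of these 305 had a UMI of a CD3 chain, and 28 epithelial genes took a median of 10.4% of their UMIs. That is close to the 11.9% of the 4382 cells with no gene of the rule, and far above the 1.57% of the lymphocyte-rich members. Both kinds of RNA were thus present under 1 barcode in these cells, and a lymphocyte with free epithelial RNA, an epithelial cell with free lymphocyte RNA and a pair of cells cannot be told apart. By Scrublet, which scores likely doublets, 44 members and 3 of the lymphocyte-rich members were among the 5% of cells with the highest scores.

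**Figure D3:**
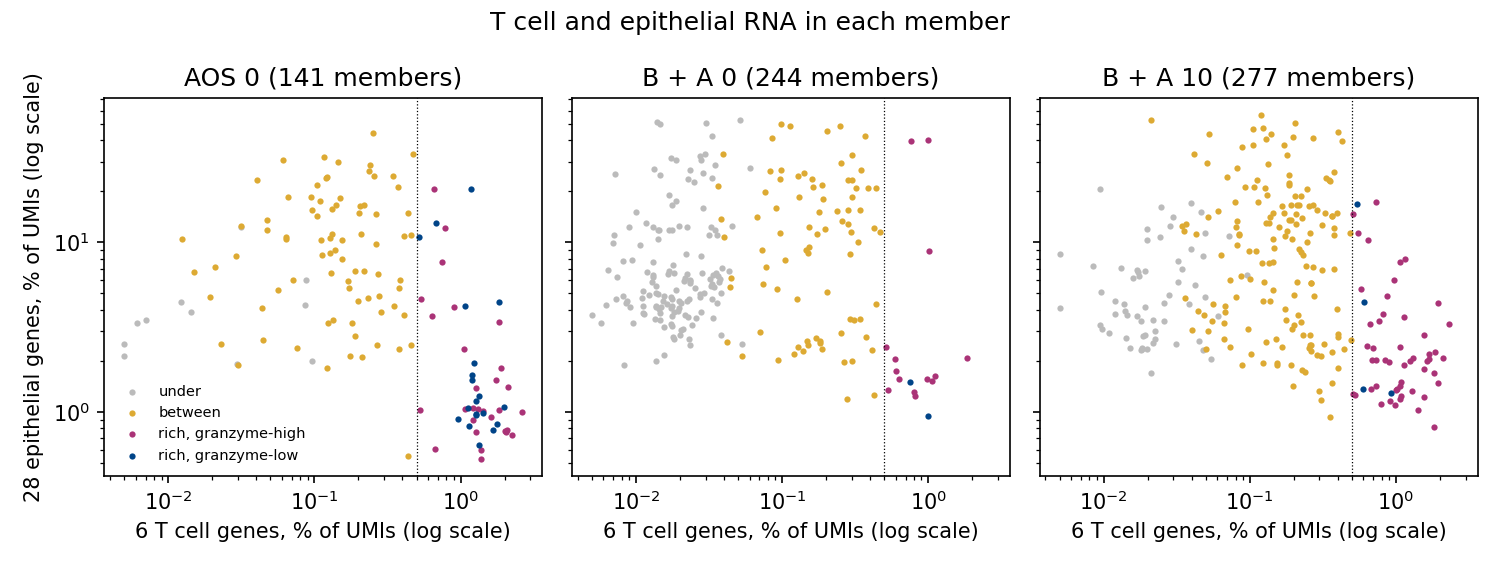
Percent of each member's UMIs in Cd3d, Cd3e, Cd3g, Cd7, Cd8a and Nkg7 against percent in 28 epithelial genes, 1 point per cell and 1 panel per library, both on log axes. The 120 lymphocyte-rich members, at 0.5% or more, had a median of 1.57% epithelial RNA, while the members between the limits had 10.4%.

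Epithelial RNA was carried by all ranges. Summed over cells, Fabp1, the liver-type fatty acid binding protein of enterocytes, stood in the members at 57.2%, 21.6% and 32.5% of its level in cells with no gene of the rule. Reg3b, a secreted antibacterial lectin, stood at 56.9%, 47.8% and 46.7%, and Agr2, a disulfide isomerase needed for mucin, at 66.4%, 55.0% and 55.4%. The sums lay above the typical cell, since the median member held 527, 729 and 827 CPM of Fabp1, 3582, 5622 and 4997 of Reg3b and 187, 883 and 337 of Agr2, so that the order of the libraries in Fabp1 was not that of the sums. In the lymphocyte-rich members Reg3b was at 30.6%, 17.0% and 21.5% and Agr2 at 19.9%, 12.8% and 44.0%. Fabp1 reached 59.1%, 11.6% and 52.2% there, with 35.6%, 21.3% and 31.9% of its UMIs in 1 cell and medians of 602, 691 and 905 CPM, and Epcam, an adhesion molecule of epithelial cells, 29.3%, 21.9% and 23.4%. Goblet cell RNA was unevenly spread. Of the lymphocyte-rich members 1, 2 and 2 had at least 5% of their UMIs in 7 goblet cell genes, and the highest in B + A 0 had 41.9%.

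Among the lymphocyte-rich members Cd3e and Cd3d, chains of the T cell receptor complex, were close between libraries, and the third chain, Cd3g, was not. Cd3e was found in 113 of 120 cells, at 1005, 937 and 1023 CPM, and Cd3d in 112 cells at 862, 709 and 876. Cd3g was at 2612, 1246 and 1829, a log2 ratio of −1.07 (−1.38 to −0.77) and then 0.55 (0.23 to 0.89), so that the CD3 chains did not move together. Nkg7, a granule membrane protein, was in all 120 cells at 2440, 1988 and 2290, and Cd7, a surface protein of T and natural killer cells, in 115 at 4794, 3108 and 3268. Lck, the kinase at the coreceptor, was in 54 cells. Against cells with no gene of the rule, 1630 of 10375 genes with at least 50 UMIs were at least 2-fold higher in the lymphocyte-rich members (15.7%). Of the 22 listed genes of receptor signalling 8 had that many UMIs and all 8 were higher, and the 22 summed to 1530 against 10.6 CPM. The receptor's own alpha, beta, gamma and delta chains were not analysed here.

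Of the coreceptors, Cd8a was found in 108 cells and Cd8b1, which encodes the beta chain, in 19, all of which had Cd8a, while no UMI of Cd4 was found. By library Cd8b1 was found in 8 of 49, 1 of 16 and 10 of 55 cells. Its level was low, at 60.4, 22.9 and 95.9 CPM, so that a cell without a UMI may still express it. Fcer1g, the signalling gamma chain of Fc receptors, was found in 91 cells and Tyrobp, the adaptor DAP12, in 72. Fcer1g was present in 7 of the 19 cells with Cd8b1, while 84 cells had Fcer1g alone and 17 had neither. Klra5, a receptor of the Ly49 family whose reads can be shared with near-identical members, was in 43 cells and in 1 of the 19. The cells come from 3 libraries of unequal depth, and these joint counts are descriptions.

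Genes of residence in the epithelium were present as well. Itgae, the alpha E integrin that binds E-cadherin, was found in 61 cells, Cd160, a receptor of intraepithelial lymphocytes, in 77, and Runx3, a transcription factor of CD8 cells, in 61. Of the 20 listed genes of residence 12 had at least 50 UMIs and 11 of them were at least 2-fold above cells with no gene of the rule, and the 20 summed to 2360 against 93.5 CPM. Runx3 was 550-fold above those cells, Klra5 802-fold, Srgn (serglycin, the core protein of granules) 362-fold, Ccr9, the gut-homing chemokine receptor, 343-fold, and Xcl1 1465-fold. Those folds are a description, because the cells were chosen by other genes of the same lineage. They are also pooled over libraries. Xcl1 stood at 785, 114 and 122 CPM by library in the lymphocyte-rich cells, so its fold rests mostly on AOS 0. In the non-members under 0.1% Xcl1 stood at 0.236, 0.323 and 0.394.

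Genes of other functions set the cells apart from their neighbours to different degrees. The counts here are over listed genes with at least 50 UMIs, are read against the 15.7% above, and are followed by the sum of the whole list in both kinds of cell. At least 2-fold above cells with no gene of the rule were 20 of 20 genes of leukocyte actin and motility (7465 against 172 CPM), 7 of 12 transcription factors (1110 against 246), 9 of 20 survival genes (1978 against 712) and 16 of 20 cell cycle genes (7408 against 2693). It was 1 of 15 targets of p53 (519 against 514), 5 of 32 interferon genes (12994 against 11998) and 3 of 21 immediate early and heat shock genes (4842 against 2705), shares at or below that of all genes. Of 8 checkpoint receptors just 2 had enough UMIs, and both were higher (382 against 1.66). Mki67, a protein of dividing cells, had a UMI in 8.16%, 18.8% and 9.09% of lymphocyte-rich cells thinned to 1000 UMIs, against 2.51%, 2.53% and 2.28% of non-members. Top2a, the topoisomerase of dividing cells, had one in 22.4%, 6.25% and 20%, against 6.30%, 6.64% and 5.97%. In B + A 0 these shares rest on 16 cells, and the pair did not give the same order of libraries.

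Markers of other cell types summed to little, though not always to less than in cells with no gene of the rule. In the lymphocyte-rich members B cell genes summed to 21.0 CPM (1.29 in those cells) with 4 of 5 genes at 0, plasma cell genes to 8.4 (46.1) with 3 of 4 at 0, and erythroid genes to 4.2 (38.4) with 3 of 4 at 0. Myeloid genes summed to 25.2 (47.8) with 3 of 8 at 0, innate lymphoid genes to 21.0 (22.2), and stromal genes to 10.5 (2.38) with 4 of 5 at 0. Mast cell genes summed to 39.9 (8.74) with 4 of 5 at 0, and the one that was found was Kit, in 16 cells. Tuft cell genes summed to 65.1 (172) with 7 of 11 at 0. Klrb1c, the NK1.1 receptor, was at 0 in the 120 cells and in the 60 members without a UMI of a CD3 chain.

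Granzymes split the lymphocyte-rich members into separate groups. Gzma and Gzmb (granzyme B) together ranged from 0 to 15.2% of a cell's UMIs in AOS 0, with a median of 2.31%, from 0.0249% to 5.94% in B + A 0, with a median of 3.05%, and from 0 to 8.52% in B + A 10, with a median of 3.10%. No cell lay between 0.225% and 0.526%, so that at a limit of 0.3% no cell was near it. Below it were 26 granzyme-low cells, 18 of which had no UMI of either gene and none more than 8, and above it 94 granzyme-high cells. The limit was set after the values were seen, and the gap is a description.

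The granzyme-low cells were mostly of AOS 0. They were 20 of 49 lymphocyte-rich members there (40.8%, 27.0 to 55.8). They were 2 of 16 in B + A 0 (12.5%, 1.55 to 38.3) and 4 of 55 in B + A 10 (7.27%, 2.02 to 17.6). The share was lower by 28.3 points in B + A 0 than in AOS 0 (difference −28.3, −44.9 to −1.63) and by 33.5 points in B + A 10 than in AOS 0 (difference −33.5, −48.2 to −17.5). B + A 10 and B + A 0 differed by −5.23 points (−29.2 to 8.22), an interval that holds 0. With at least 3929 UMIs in all libraries the counts were 10 of 26, 2 of 16 and 0 of 4. As shares of all cells the granzyme-low cells were 0.487%, 0.0626% and 0.0747%, and the granzyme-high cells 0.706%, 0.438% and 0.953%. The granzyme-high cells of B + A 0 differed from those of AOS 0 by −0.268 points (−0.622 to 0.0972). Gzma RNA outside members was higher in both busulfan libraries, as given above, at 148 and 152 CPM against 31.8, and its part in these shares was not tested.

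**Figure D4:**
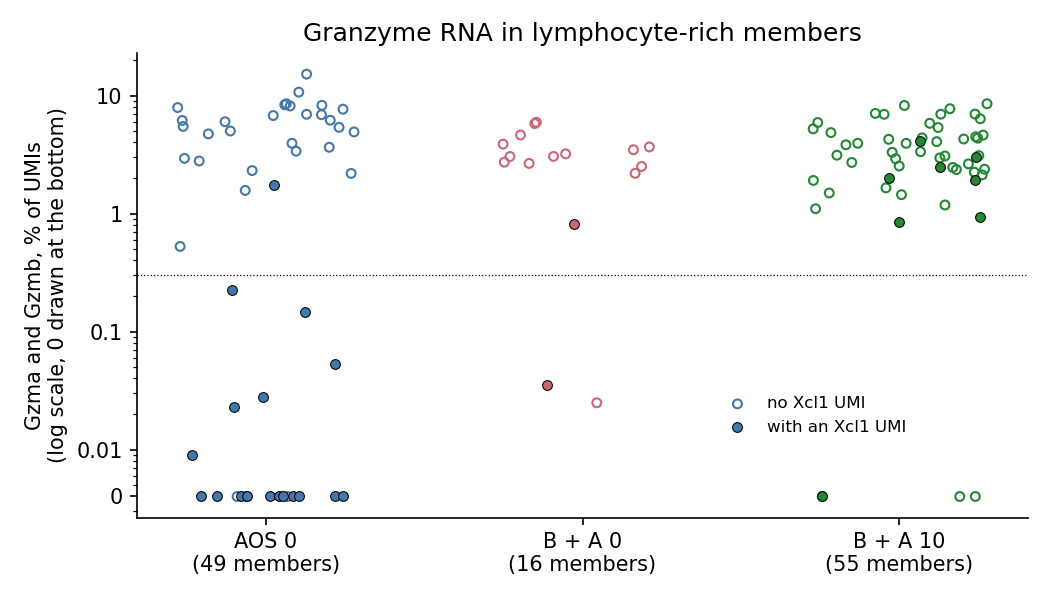
Gzma and Gzmb as percent of a cell's UMIs (log axis, 0 drawn at the bottom) in the lymphocyte-rich members (49, 16 and 55 cells), 1 point per cell, spread sideways for view; filled points had a UMI of Xcl1. The dotted line marks 0.3%, under which lay 20, 2 and 4 cells, and most filled points of AOS 0 lay under it.

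Within AOS 0 the 20 granzyme-low cells differed from the 29 granzyme-high cells in chemokines. Xcl1, a chemokine that draws cross-presenting dendritic cells, was found in 18 of the 20 (lowest 0, median 1515, highest 9641 CPM) and in 1 of the 29. In sum it stood at 1942 against 21.5 CPM, from 179 and 3 UMIs, a log2 ratio of 6.50 (4.93 to 8.79). Ccl5 went the other way, at 3081 against 20274, a log2 ratio of −2.72 (−2.90 to −2.54), and was found in 18 of the 20 and all 29. Both groups are from the same library, and their median UMIs were 4023.5 and 4253.

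The natural killer signalling chains and secreted proteins were lower in the granzyme-low cells of AOS 0. Tyrobp was at 445 CPM against 1309, in 8 of 20 cells against 24 of 29, and Fcer1g at 1107 against 2032, a log2 ratio of −0.88 (−1.22 to −0.55), in 16 against 26. Spp1, the secreted protein osteopontin, was at 130 against 880, in 6 against 19 cells, and Fgl2, a fibrinogen-like protein secreted by T cells, at 54.2 against 358. Il2rb, the chain shared by the receptors of interleukins 2 and 15, was at 141 against 365. Cd160 was higher in them, at 835 against 351, a log2 ratio of 1.25 (0.72 to 1.80), and so was Tmsb10, which binds actin monomers, at 5500 against 2232. Cd27, a costimulatory receptor, was found in 12 of 20 against 4 of 29 cells, from 14 and 4 UMIs.

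The lineage genes differed by less than 2-fold between these groups, in both directions. Cd3e was at 1009 against 1002 CPM, a log2 ratio of 0.01, Cd7 at 5164 against 4550, Nkg7 at 2235 against 2575, and Cd8a at 770 against 1009. Cd3d was higher in the granzyme-low cells, at 1063 against 730, a log2 ratio of 0.54 (0.13 to 0.96), and Cd3g lower, at 1790 against 3155, −0.82 (−1.08 to −0.56). The 6 genes that chose these cells took a median of 1.26% of UMIs in the granzyme-low and 1.31% in the granzyme-high cells. Of 679 genes with at least 50 UMIs in both groups together, 19 were at least 2-fold higher in the granzyme-low cells (2.8%) and 28 at least 2-fold lower (4.12%). Several of the others at both ends were epithelial genes held by 1 cell, such as Spink4, of which 1 cell held 93% of the UMIs.

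The 6 granzyme-low cells of the busulfan libraries did not all share this pattern. Xcl1 was found in 2 of them, Ccl5 and Cd3e in all 6, Fcer1g in 3, Cd8a in 2, and Spp1 and Tyrobp in none. Ccl5 also had a UMI in 83.5% and 73.0% of the non-members under 0.1% of B + A 0 and B + A 10. Among all lymphocyte-rich members Xcl1 was found in 19 of 49, 2 of 16 and 8 of 55 cells, and stood at 785, 114 and 122 CPM, a log2 ratio of −2.78 (−3.86 to −1.87) and then 0.09. In the granzyme-high cells it was found in 1 of 29, 1 of 14 and 7 of 51. Granzyme-low cells were also fewer in both busulfan libraries, and the part of their number in the level of Xcl1 was not tested.

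To compare cells past the same granzyme limit across the libraries, the 29, 14 and 51 granzyme-high cells were set side by side. They were not matched in depth, with a median of 4253, 5322.5 and 2512 UMIs. Just 16, 14 and 4 of them had at least 3929 UMIs, the minimum of B + A 0. The levels and the numbers of cells with a UMI below were not compared at equal depth. Of 644 genes with at least 50 UMIs in AOS 0 and B + A 0 together, 19 were at least 2-fold higher in B + A 0 (2.95%) and 24 at least 2-fold lower (3.73%). Of 659 genes, 20 were at least 2-fold higher in B + A 10 than in B + A 0 (3.03%) and 10 at least 2-fold lower (1.52%).

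Fcer1g was lower in B + A 0 than in both other libraries. It was found in 26 of 29 cells of AOS 0 (median 1638, highest 4741 CPM) and in 7 of 14 cells of B + A 0 (median 125, highest 1375). With both busulfan and AOS it was found in 39 of 51 (median 917, highest 4407). In sum it was at 2032, 373 and 1159, a log2 ratio of −2.45 (−3.05 to −1.89) and then 1.64 (1.06 to 2.26). The cells of the libraries overlapped, and B + A 0 had the lowest median. Tyrobp was at 1309, 411 and 759, a log2 ratio of −1.67 (−2.26 to −1.12) and then 0.88 (0.30 to 1.50). Outside members Fcer1g was at 3.09, 11.3 and 11.6 CPM, higher in B + A 0 than in AOS 0 and close between the busulfan libraries.

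Ccl5 was lower in B + A 0 than in both other libraries, and the granzymes were lower in both busulfan libraries than in AOS 0. Ccl5 was at 20274, 9128 and 19674 CPM, a log2 ratio of −1.15 (−1.27 to −1.03) and then 1.11 (0.99 to 1.23), and the medians over cells were 14403, 6520 and 14402. Gzma was at 46914, 28129 and 31656, a log2 ratio of −0.74 (−0.81 to −0.67) and then 0.17, and Gzmb at 8871, 5232 and 4284, −0.76 and then −0.29. Granzyme-high cells of AOS 0 thus held more granzyme RNA than those of both busulfan libraries, with a median of 5.47% of UMIs against 3.13% and 3.30%. The size of these differences changed with what a cell's UMIs were divided by. Scaled to the UMIs of lymphocyte genes alone, the log2 ratio of B + A 0 over AOS 0 was −0.01 for Gzma, −0.03 for Gzmb and −0.42 for Ccl5, and −1.72 for Fcer1g and −0.94 for Tyrobp. Gzma, Gzmb and Ccl5 are themselves a large part of that denominator, which draws their ratios toward 0 by construction. Those ratios therefore cannot show whether granzyme RNA differed. Without the cells over 5% goblet cell RNA it was −0.77 for Gzma, −1.31 for Ccl5 and −2.72 for Fcer1g.

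Of the receptor genes, Cd3g was at 3155, 1260 and 1869 CPM, −1.32 on the log2 scale (−1.66 to −1.01) and then 0.57 (0.23 to 0.92), and Cd8a at 1009, 553 and 1097, −0.87 and then 0.99. Cd3e was at 1002, 951 and 1021, so that its ratios of −0.07 (−0.50 to 0.34) and 0.10 (−0.31 to 0.52) had intervals holding 0. Cd3g, Cd8a and Cd3e helped choose these cells, so these ratios are descriptions. Spp1 was at 880, 347 and 393, a log2 ratio of −1.34 (−2.00 to −0.73) and then 0.18, found in 19 of 29, 9 of 14 and 26 of 51 cells. Itgae and Cd160 were at 308, 270 and 186 and at 351, 386 and 262.

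Lgals1, which encodes galectin-1, a secreted lectin that acts on T cells, was higher in B + A 0, at 315, 1273 and 579 CPM, a log2 ratio of 2.02 (1.49 to 2.56) and then −1.14 (−1.57 to −0.70). It was found in 9 of 29, 7 of 14 and 19 of 51 cells, so that most cells of AOS 0 and B + A 10 had none. With the limit of 0.5% raised to 0.8% the second ratio was 0.37, so its direction rests on the limit. Actb, the cytoskeletal actin, was at 8041, 25365 and 23709, with medians over cells of 7994, 12235 and 12200, and was also higher in cells with no gene of the rule of the busulfan libraries (4407, 6260.3 and 7969). Hist1h2ao, a replication histone with near-identical copies, was at 42.9, 694 and 441, and in cells with no gene of the rule at 19.8, 138 and 83.3.

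**Figure D5:**
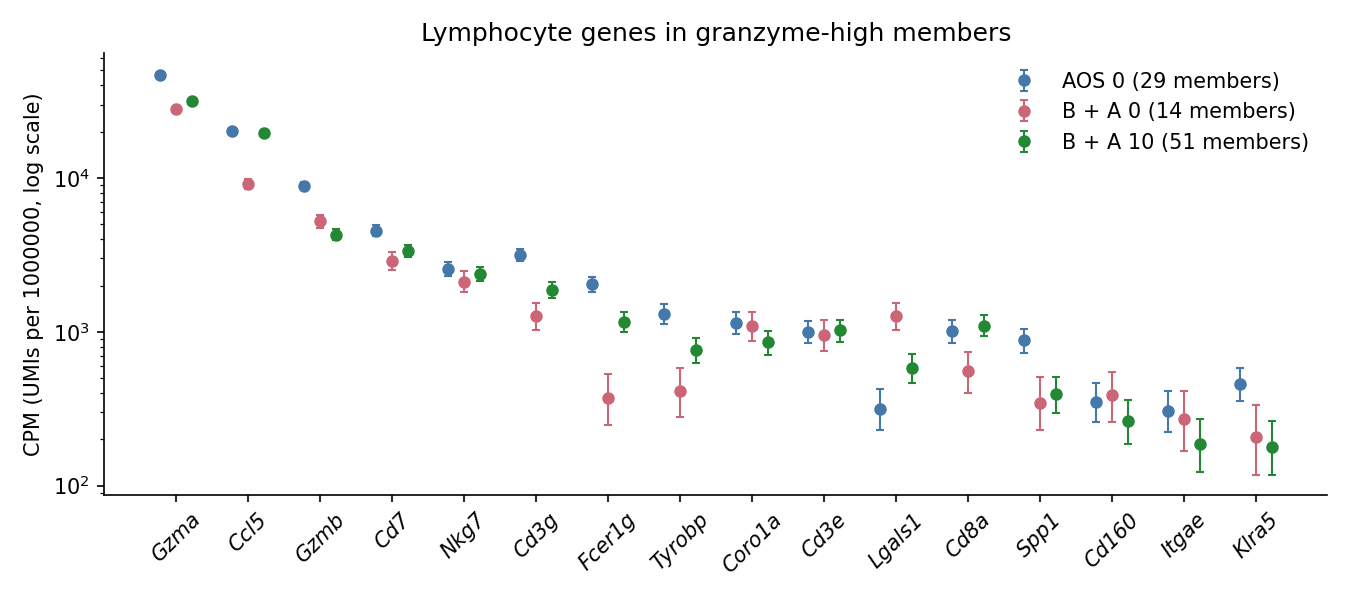
Level of 16 lymphocyte genes (CPM, log axis) in the granzyme-high members (29, 14 and 51 cells by library), with 95% Poisson intervals of the summed UMIs. Fcer1g stood at 2032, 373 and 1159, while Cd3e, a gene that helped choose the cells, stood at 1002, 951 and 1021.

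Other genes at the ends of these comparisons were epithelial or rested on few cells. In the granzyme-high cells Tff3 and Zg16, secreted by goblet cells, were at 3942, 23719 and 4553 and at 2740, 17497 and 2690 CPM, and 2 of the 16 lymphocyte-rich cells of B + A 0 held over 41% goblet cell RNA. Fabp1 was at 2511, 733 and 3359, with 56.1% of its AOS 0 UMIs in 1 cell. Ifi27l2b, an interferon-inducible gene, was at 358, 116 and 724, and in cells with no gene of the rule at 847, 484 and 2270. Mptx1, a secreted pentraxin, was at 1459, 167 and 124, with 91% of its AOS 0 UMIs in 1 cell, and Gip, an enteroendocrine hormone, came almost wholly from 1 cell of B + A 10. Cd74, the invariant chain of antigen presentation, was at 372, 103 and 152.

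Over all 120 lymphocyte-rich members the fixed gene lists were read beside all genes. For B + A 0 over AOS 0, 20 of 960 genes were at least 2-fold higher (2.08%) and 37 at least 2-fold lower (3.85%), with a median log2 ratio of −0.04. Against that, 2 of 5 listed genes of natural killer receptors and signalling were lower, Fcer1g and Tyrobp, and none higher (median −0.92). Of 7 granule genes, which include Gzma, Gzmb and Nkg7 of the rule, 2 were lower (median −0.29). Of 3 chemokines 2 were lower (median −2.08), and 1 of 10 cell cycle genes was higher (median 0.52). Of the 8 genes of the rule 1 was lower (median −0.28), of 7 residence genes 1 (median −0.29), of 15 actin and motility genes 1 (median −0.09) and of 13 interferon genes 2 (median −0.36). Of 5 immediate early and heat shock genes 1 was higher (median 0.86), and of 25 epithelial genes 4 were higher and 5 lower (median −0.52).

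For B + A 10 over B + A 0, 18 of 710 genes were at least 2-fold higher (2.54%) and 10 at least 2-fold lower (1.41%), with a median of 0.00. Of 3 listed genes of natural killer receptors and signalling 1, Fcer1g, was higher (median 0.93). Of 5 granule genes, which again include Gzma, Gzmb and Nkg7, 1 was higher (median 0.23). The 1 chemokine with enough UMIs, Ccl5, was higher (1.17). None of the 8 genes of the rule, 3 residence genes, 11 actin and motility genes, 10 cell cycle genes or 9 interferon genes passed 2-fold in either direction. Of 18 epithelial genes 5 were higher and 3 lower. These lists have few genes with enough UMIs, and the counts say no more than that.

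Over all members the genes of lymphocytes were lowest in B + A 0 and defensin genes were among the highest in both comparisons. For B + A 0 over AOS 0, 2671 of 6206 genes were at least 2-fold lower (43%) and 52 at least 2-fold higher (0.838%), with a median log2 ratio of −0.94. The 8 genes of the rule were all lower (median −2.49). So were the 5 listed genes of natural killer receptors and signalling (−2.92) and 19 of 19 actin and motility genes (−2.22). Defa28, Defa34 and Defa5 were among the 10 highest genes and Xcl1, Spp1 and Klra5 among the 10 lowest. For B + A 10 over B + A 0, 200 of 6284 genes were at least 2-fold higher (3.18%) and 30 at least 2-fold lower (0.477%), with Defa21, Defa20 and Defa22 among the 10 highest and the 8 genes of the rule all higher (median 1.33, against 0.26 over all genes). The share of members under 0.1% was 7.80%, 59.4% and 22.4% in the same libraries, and a change within lymphocytes cannot be told apart from this makeup in these counts.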

How the data were processed

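Droplet libraries (10x Genomics 3′, version 2 chemistry) were counted by the authors with Cell Ranger 2.2.0 on mm10. The methods give a forced cell number of 5000, but the B + A 10 library as deposited holds 5352 cells, and this conflict was not resolved here. Cells under 200 genes and genes found in fewer than 3 cells were removed. The deposited values are the natural log of 1 plus UMIs per 10000 UMIs of a cell, in a table of 13891 genes and 12653 cells, with 0 columns unused. Whole UMIs were recovered to within 0.01 UMI, and the planned sums of counts were made from them. Sums over cells were scaled to UMIs per 1000000 (CPM). Genes with at least 50 UMIs in the 2 groups compared were counted as higher or lower from 2-fold, a rule of size and not a test.

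Intervals are exact Poisson or binomial, and Newcombe for differences of shares. Members, gene lists and limits were chosen with earlier results of these data known. Named were genes of 28 fixed lists (340 of 404 entries matched the table), the 20 genes highest in members over other cells with at least 100 UMIs, and the 10 highest and 10 lowest genes of each comparison. Comparisons of lymphocyte-rich and granzyme-high cells, the limits of 0.1%, 0.3% and 0.5%, and the joint counts were added after the values were seen. Groups follow the sample titles, descriptions and treatments, not the source names, which differ for both busulfan libraries. Thinned shares used 1000 UMIs per cell.

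Clusters came from 2000 variable genes, 20 principal components, 20 neighbours and Leiden clustering at resolution 0.8 (19 clusters). Doublets were kept and scored with Scrublet. Python 3.11.15, scanpy 1.11.5, leidenalg 0.10.2, pandas 2.3.3, numpy 2.4.6, matplotlib 3.10.9, scikit-learn 1.9.0 and scipy 1.17.1 were used, and the scripts were tested on simulated data.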

Additional observations from a re-analysis of the deposited data

How the results depend on the processing

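The excess of members in B + A 0 over AOS 0 (4.20 points) moved to 6.84 with 2 of the 8 genes, 2.54 with 4 of 8 and 14.1 without the leukocyte genes. It reversed to −0.366 and −0.199 with cells thinned to 1000 and 2000 UMIs, −0.0918 with the T cell clusters in place of the rule and −0.0675 with at least 0.1% of UMIs in the 8 genes. B + A 10 against B + A 0 (−2.46) moved to −8.19 without the leukocyte genes. It moved to −0.661 with the same minimum of 3929 UMIs per cell in all libraries. It reversed to 0.736, 0.737, 0.876 and 0.919 under the 4 settings that reversed the first difference. The lymphocyte-rich difference moved from −0.69 to −0.199 and reversed from 0.527 to −0.310 with that minimum of 3929 UMIs per cell. The granzyme-low share kept its order under every limit tried (32.3%, 11.4% and 6.02% with 0.3% for the 6 genes, 45.0%, 12.5% and 2.78% with 0.8%). Lgals1 in granzyme-high cells, B + A 10 over B + A 0, reversed to 0.37 at 0.8%.

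Counts over all members moved as well. Genes higher in B + A 0 (52) were 97 with 20 UMIs as minimum, 85 in the members with less epithelial RNA, 3 relative to the UMIs of genes higher in members and 84 by means of cells; those lower (2671) were 1559 with a minimum of 100, 4028 with 4 of 8 genes, 272 on that denominator and 865 by means of cells. Genes higher in B + A 10 (200) were 522, 87 and 121 with minima of 20 and 100 and with less epithelial RNA; those lower (30) were 122, 11, 2 and 70 with minima of 20 and 100, that denominator and means of cells. No paired analysis was possible because each group has 1 library.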
